A study of Rattus norvegicus with 36 samples.

Results

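The effect of the BACHD transgene was examined in rats raised in an enriched environment (EE), as TG_EE/WT_EE. The members were chosen by their sample labels, as the striatal libraries with environment EE, 6 of genotype TG (transgenic) and 6 of genotype WT (wildtype), which made 12 of the 36 libraries of the series. Every animal was a male Sprague Dawley rat of 2 months, and RNA was sequenced after selection of polyadenylated transcripts. The other 24 libraries came from the same genotypes in a standard environment (SE) or after maternal separation (MS, written as ELS in the labels), again with 6 animals in each group. TG animals carried the full-length human huntingtin gene with an expanded repeat on a bacterial artificial chromosome together with its own flanking regulatory regions, inherited from heterozygous fathers, and WT animals were littermates without it. EE rats lived from weaning in larger groups and larger cages than SE rats, with objects that were changed repeatedly. MS rats were taken from the dam for part of each day in the first weeks of life and were then kept as the SE group. Whole litters were allocated to an environment, and the labels do not give the litter or cage of an animal. Animals of a group may therefore be littermates, whereas the p-values treat them as independent. Those of the main fit rest on the variation between animals left after its covariates, over all 36 libraries.

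Huntingtin is a large scaffold protein found in most cells, and an expanded glutamine repeat in it causes Huntington disease. The striatum, which consists mostly of inhibitory medium spiny projection neurons, is the brain region in which the disease is best known to alter transcription and to cause cell loss. Enriched housing combines social, motor and sensory stimulation and is widely used in rodents to alter activity-dependent gene expression. In bulk striatal tissue, fewer cells of a type and less RNA per cell cannot be told apart.

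The table listed genes by Ensembl identifier and neither it nor the reference tables used here paired these identifiers with symbols. The transgene, the defining markers of striatal cells and other gene groups could therefore not be examined by name. Genes are described by the rank of their difference. The paper left out Msantd1 by hand, since its sequence is carried by the flanking region of the construct and likely caused its difference. That gene could not be identified or removed here, so it may be among the genes called. Of 23965 genes in the table, 12657 had a mean raw count of at least 50 over the 36 libraries and were tested, and they held 99.25% to 99.38% of the counts of each EE library. Total counts per library ranged from 9895073 to 15307438 in WT_EE and from 11915538 to 13447857 in TG_EE.

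The labels number the libraries up to 36, and 6 consecutive numbers, here called a run, always hold 1 animal per group. WT_EE and TG_EE replicate 6, both in the last run, stood apart from the other EE libraries on the first principal component, which held 30.1% of the variance over the tested genes. Their scores were 27.2 and 29.6, whereas the other 10 libraries lay between -14.5 and 2.42. In these libraries, 540 genes were above and 307 genes were below all other EE libraries, 6.69% of the genes tested. The 85 genes that lay above by at least 1 on the log2 scale had a summed normalised count of 64827 in WT_EE replicate 6 and 119810 in TG_EE replicate 6, against 11733 to 21862 in the other EE libraries. This list was selected from the values themselves. Outside EE, its sum was also well above that range in WT_SE replicates 2, 5 and 6, at 97254, 40374 and 226760, and in TG_SE replicate 5, at 31858. The remaining SE and MS libraries had 13214 to 21970. As 1 library of each EE genotype was concerned, the counts of called genes, of genotypes that do not overlap and of directions by run are also given without this pair.

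In EE, 52 genes (0.411% of those tested) differed between TG and WT at an adjusted p not above 0.1 and a log2 fold change of 0.3 or more in size, and they are called differentially expressed genes (DEGs) here. Of these, 22 (0.174%) were higher and 30 (0.237%) were lower in TG_EE. Most of the differences were small. The median absolute log2 fold change of the DEGs was 0.42, which is 1.33-fold, whereas it was 0.06 over all genes tested. Only 5 DEGs reached a log2 fold change of 1 in size, of which 3 were higher and 2 lower in TG_EE. Another 8 lay between 0.5 and 1, and 39 lay under 0.5. The 22 higher genes had log2 fold changes of 0.31 to 3.66 (median 0.44), and the 30 lower genes fell by 0.30 to 1.80 (median -0.40 as a signed change). Values came from edgeR's quasi-likelihood test on the counts of all 36 libraries, with 5 surrogate variables as covariates and Benjamini-Hochberg adjustment over all genes tested. Without surrogate variables the same test called 21 genes, 18 of them among the 52.

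**Figure D1:**
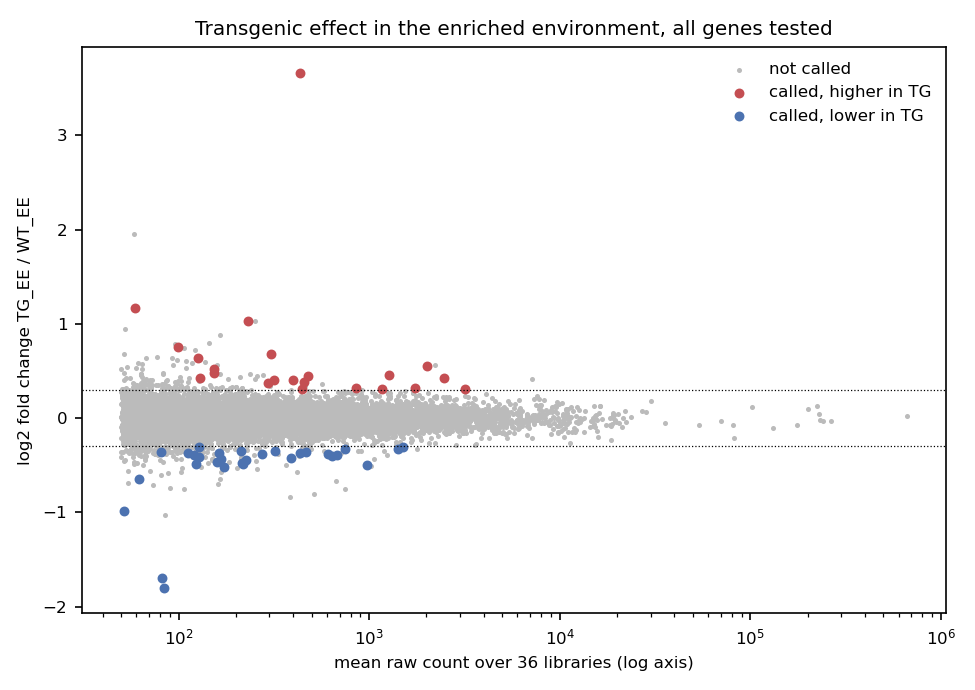
Log2 fold change TG_EE/WT_EE (vertical axis) against the mean raw count over 36 libraries (horizontal log axis) for the 12657 genes tested. Each point is 1 gene, with the 22 DEGs higher in TG in red, the 30 lower in blue and dotted lines at an absolute log2 fold change of 0.3. One gene lies far above the others at 3.66, and 39 of the 52 DEGs lie within 0.5 of 0.

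The gene with the largest difference, ENSRNOG00000010867, had normalised counts of 52.6, 55.8, 60.7, 69.4, 74.2 and 78.7 in the 6 WT_EE animals. In TG_EE it had 704, 720, 910, 918, 985 and 1149.9. Every TG_EE animal was thus far above every WT_EE animal. The log2 fold change was 3.66 ± 0.127 (standard error, n = 6 per group), or 12.7-fold, with an adjusted p of 1.21e-20 by edgeR. In each of the 6 runs the TG_EE animal was higher, by 3.33 to 4.21 on the log2 scale. The difference was 3.52 in SE and 3.51 in MS, so that this gene separated the genotypes to a similar extent in the 3 environments. The interaction terms were 0.14 and 0.15, with standard errors of 0.216 and 0.211. Whether reads of this or any other DEG came from the construct was not tested.

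The second largest rise was that of ENSRNOG00000048769. Its normalised counts in WT_EE were 18.5, 34.1, 34.2, 35.1, 37.2 and 58.0, and those in TG_EE were 42.3, 74.0, 80.2, 83.4, 89.0 and 99.8. The groups overlapped by 1 animal on each side, WT_EE replicate 2 and TG_EE replicate 4. The log2 fold change was 1.17 ± 0.247 with an adjusted p of 0.0173 by edgeR, and the exact two-sided permutation test over the 12 animals gave p = 0.00433. In SE and MS the fold change had the opposite sign, at -0.28 and -0.22, with unadjusted p of 0.304 and 0.415. Mean levels in WT were 61.3 ± 27.3 in SE, 36.2 ± 12.6 in EE and 65.6 ± 22.3 in MS (SD, n = 6), and in TG they were 52.8 ± 30.2, 78.1 ± 19.6 and 62.1 ± 26.5. WT_EE thus had the lowest and TG_EE the highest mean of the 6 groups. This gene was among the lowest of those tested, with a mean raw count of 58.9, and it was not called by edgeR with no covariate, where its log2 fold change was 1.11 with an adjusted p of 0.229. It was called with runs or pairs of consecutive libraries as covariate (adjusted p of 0.0462 and 0.0972 by edgeR) and by DESeq2 without surrogate variables (0.0973).

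Both of the largest falls were seen in all environments. ENSRNOG00000014296 had 76.3, 93.5, 94.4, 151, 168 and 181 normalised counts in WT_EE and 24.7, 26.9, 29.6, 37.3, 37.5 and 39.1 in TG_EE. No TG_EE animal reached a WT_EE animal, although the WT_EE animals themselves were widely spread. The gene fell by 1.80 on the log2 scale (standard error 0.233, adjusted p = 1.89e-05 by edgeR), which is 3.48-fold. ENSRNOG00000004179 had 80.9, 91.5, 92.1, 116, 118 and 228 in WT_EE and 15.7, 15.9, 24.8, 41.2, 43.4 and 49.4 in TG_EE. Its highest WT_EE value, 228, belonged to replicate 6 of the last run. TG_EE lay below all WT_EE animals, so leaving out this value could not bring the groups together. The gene fell by 1.69 (standard error 0.233, adjusted p = 5.38e-05 by edgeR), which is 3.24-fold. In SE the fitted log2 fold changes of these genes were -2.00 and -1.91, and in MS they were -1.54 and -2.12.

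**Figure D2:**
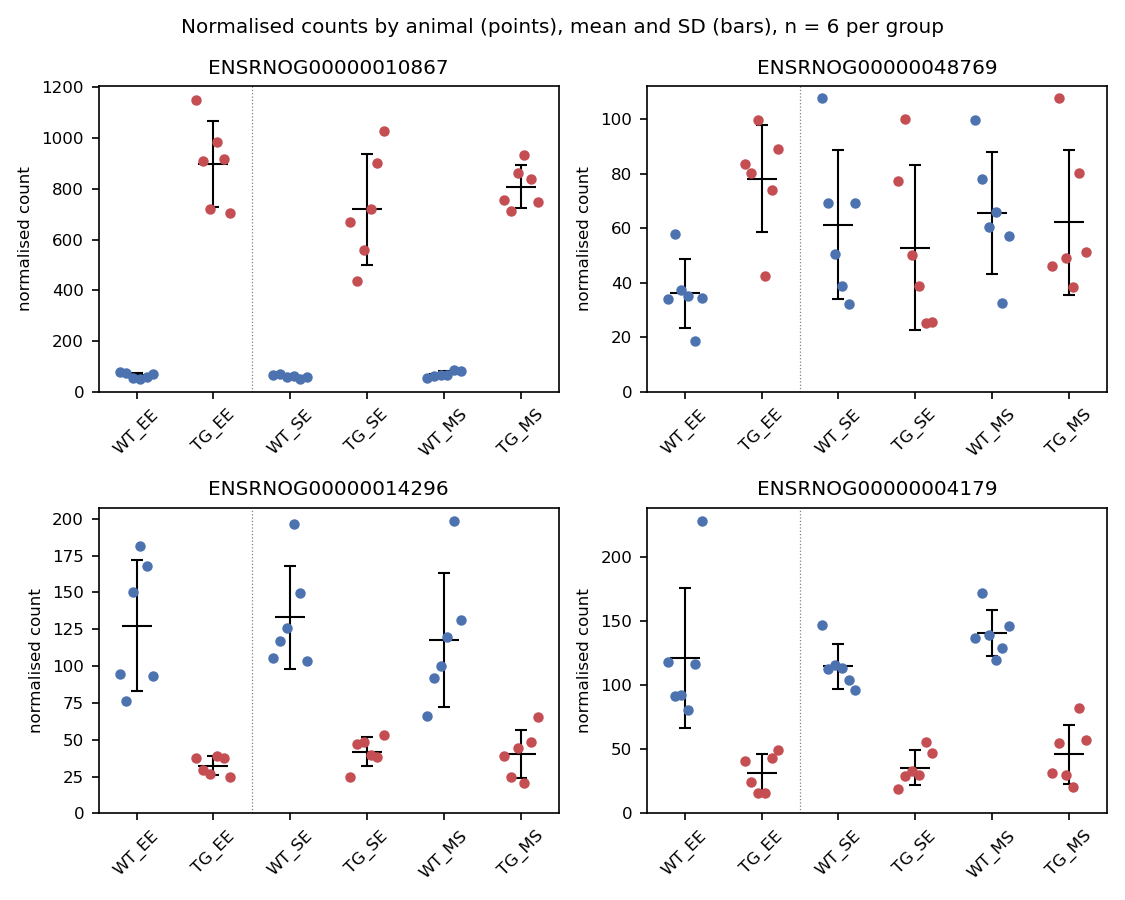
Normalised counts (vertical axes, linear, starting at 0) of the 2 genes with the largest rise (upper row) and the 2 with the largest fall (lower row) in TG_EE/WT_EE, by group. Points are animals (WT blue, TG red) and bars are the mean and SD of 6 animals. For 3 of the genes the genotypes are apart in every environment, whereas for ENSRNOG00000048769 the means lie apart in EE only, 36.2 in WT_EE against 78.1 in TG_EE.

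The remaining DEGs with large differences formed a mixed set. The third largest rise, 1.03 ± 0.263 on the log2 scale, came with overlapping groups, WT_EE lying between 122 and 253 and TG_EE between 244 and 479. Its difference was of a similar size in SE (0.98) and MS (0.88). By edgeR its adjusted p was 0.0687, and it was called in 6 of the 12 fits that left out 1 EE animal. In edgeR it was not called without surrogate variables, with runs as covariate or without the last run. The third largest fall was -0.98 ± 0.188 with an adjusted p of 0.00749 by edgeR. This gene had the lowest mean raw count of all DEGs, 51.5, and edgeR did not call it without surrogate variables. Its WT_EE animals had 38.1, 47.8, 51.1, 63.3, 102 and 107 normalised counts, and its TG_EE animals had 16.8, 23.5, 29.6, 35.6, 41.2 and 43.4. In SE and MS this gene differed by only -0.09 and 0.12, with unadjusted p of 0.657 and 0.555. The fourth largest rise was 0.75 ± 0.166 in EE, with 56.9 to 119 in WT_EE and 107 to 155 in TG_EE, and its fold changes were 0.32 in SE and -0.0036 in MS.

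Among DEGs with smaller fold changes, the precision was often higher. This follows in part from the call, since a small difference passes the limit on the adjusted p only with a small standard error. The fifth largest rise, 0.68 ± 0.0855, separated WT_EE at 184 to 257 from TG_EE at 286 to 382 normalised counts (adjusted p = 1.3e-05 by edgeR). The seventh largest rise, 0.55 ± 0.0423, had the smallest standard error of all DEGs, with WT_EE between 1474 and 1897 and TG_EE between 2194 and 2537 (adjusted p = 1.12e-10 by edgeR). The twelfth, 0.43 ± 0.0535, had 1699 to 2354 in WT_EE and 2495 to 3148 in TG_EE. Of the falls, the sixth (-0.49 ± 0.0896) had 1040.0 to 1328 in WT_EE and 710 to 907 in TG_EE, and the eighth (-0.49 ± 0.0807) had 231 to 296 in WT_EE and 149 to 206 in TG_EE. In each of these 5 genes the groups did not overlap.

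The animals of both genotypes were apart in 22 of the 52 DEGs, 9 higher and 13 lower in TG_EE, when the lowest normalised count of one genotype was set against the highest of the other. Over all genes tested this held for 59 genes, or 0.466%, and by direction for 0.166% (higher) and 0.3% (lower). The DEGs were selected on the same animals, so this count describes them and is no further test. In the other 30 DEGs at least 1 animal crossed into the range of the other genotype. With 5 animals per genotype, without the last run, 36 of the 52 did not overlap, as did 228 of all genes (1.8%). Taken by run, the TG_EE animal differed from its WT_EE counterpart in the direction of the call in 6 of 6 runs for 39 DEGs, in 5 runs for 12 DEGs and in 4 runs for 1 DEG. Over all genes, 6.97% had the same direction in all 6 runs, 3.43% higher and 3.54% lower in TG_EE. In the 5 runs other than the last, 47 of the 52 had the direction of the call throughout, and 13.9% of all genes had the same direction. The exact two-sided permutation test of the single genes, without surrogate variables, gave its smallest possible p of 0.00216 for 22 DEGs. That p requires genotypes that do not overlap, so these are the 22 DEGs above and it adds no further test. The exact test was run on the DEGs only, which were selected on the same animals. For 6 DEGs (1 higher and 5 lower) the exact p was at least 0.05, up to 0.206. The last value belonged to a fall of 0.39 in which WT_EE lay between 605 and 900.5 and TG_EE between 509 and 855 normalised counts.

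**Figure D3:**
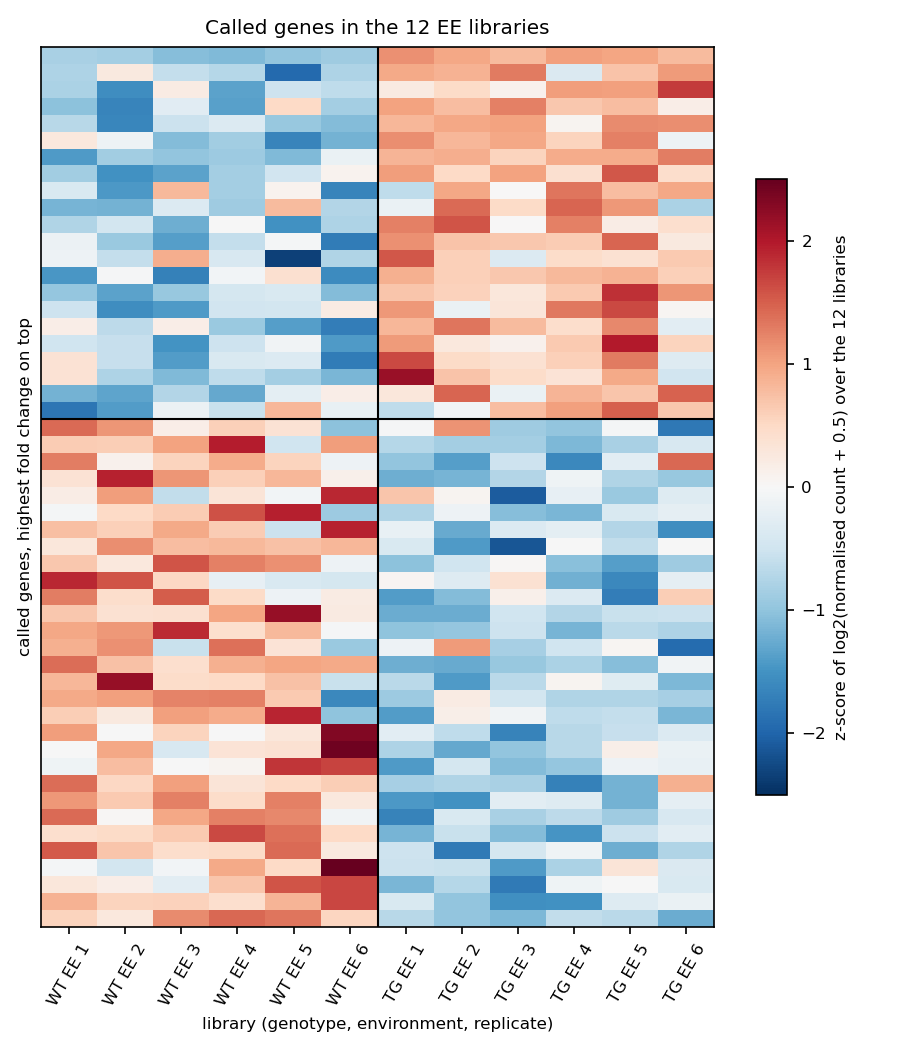
Normalised counts of the 52 DEGs in the 12 EE libraries, as z-scores per gene of log2(normalised count + 0.5) over these libraries. Rows are genes ordered by log2 fold change with the highest on top, columns are libraries, the vertical line separates WT_EE from TG_EE and the horizontal line the 22 higher from the 30 lower genes. The colour shows the distance from the mean of the gene, so a cell of the opposite colour need not cross into the range of the other genotype. Such crossing occurs in 30 of the 52 rows.

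The DEGs were spread over all levels of expression. When the tested genes were divided into 4 groups of equal size by mean raw count, 14, 16, 12 and 10 DEGs came from the lowest to the highest group, which is 0.442%, 0.506%, 0.379% and 0.316% of its genes. In the lowest group 4 DEGs were higher and 10 lower in TG_EE, whereas in the highest group 7 were higher and 3 lower. The median absolute log2 fold change of the DEGs was 0.56 in the lowest and 0.32 in the highest group. Without both libraries of the last run, these groups held 7, 7, 8 and 12 DEGs. The standard error of all tested genes had a median of 0.124 in the lowest and of 0.0483 in the highest group. A gene of the lowest group thus mostly needed a larger difference to be called, which bears on the medians of the DEGs.

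Many genes lay close to the thresholds. With the limit of 0.1 on the adjusted p alone, 129 genes (1.02%) passed, and 77 of these (0.608%) were under 0.3, 49 of them higher and 28 lower in TG_EE (0.387% and 0.221%). A difference of 0.3 or more at any p was seen in 357 genes (2.82%). The gene nearest below the fold threshold had an absolute log2 fold change of 0.298, and the smallest adjusted p above 0.1 among genes with at least 0.3 was 0.107. With a limit of 0.05, 29 DEGs remained (15 higher and 14 lower), and at 0.01 there were 13 (6 higher and 7 lower). Large fold changes did not always pass, since 8 genes (0.0632%) had a log2 fold change of 1 or more in size and the largest of those not called, 1.96, had an adjusted p of 0.493. Without adjustment, 1446 genes (11.4%) had a p under 0.05, 724 of them higher (5.72%) and 722 lower (5.7%). The normalisation centres the fold changes near 0, and their median over all genes tested was -0.0029. Without both libraries of the last run, 51 genes passed the limit of 0.1 at any fold change, and 23 DEGs were called with the limit of 0.05. In that fit, an unadjusted p under 0.05 was found for 1381 genes.

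The count of DEGs depended on single animals. With any 1 of the 12 EE animals left out, between 27 and 57 genes were called. The count fell to 27 without WT_EE replicate 5, to 31 without WT_EE replicate 2 and to 34 without TG_EE replicate 5, each a decrease by more than 1.5 times. Without both libraries of the last run, 34 genes were called, 15 higher and 19 lower, and 27 of them were among the 52. The fitted direction of the 52 genes was the same in every alternative fit in which they were tested. In each of the 12 fits without 1 animal, 17 of the DEGs were called, 7 higher and 10 lower. These included the 4 genes given by identifier, the third largest fall and the fifth and seventh largest rises.

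**Figure D4:**
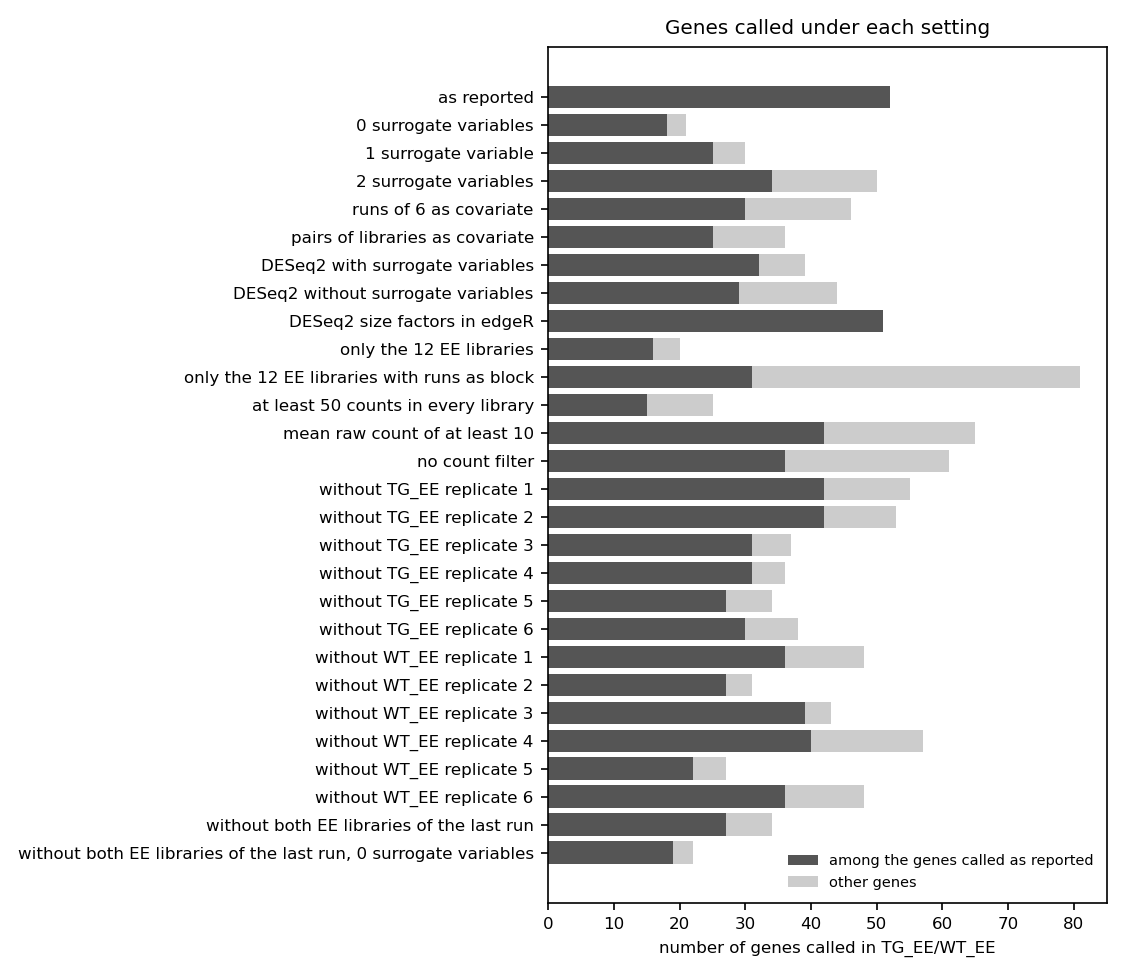
Number of genes called in TG_EE/WT_EE (horizontal axis) under each setting, with the reported fit on top. Dark bars are genes among the 52 and light bars are other genes. The counts range from 20 with a fit of the 12 EE libraries alone to 81 when that fit held the runs as a block.

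To set TG_EE/WT_EE beside the other environments, the same contrast was taken in SE and MS, which shared no animal with EE but shared the fit. Of the 52 DEGs, 50 had the same direction in SE (21 of 22 higher and 29 of 30 lower), and 41 had the same direction in MS (19 higher and 22 lower). Over all genes tested, these shares were 56.3% and 56.6%. In SE, 28 of the 52 had an unadjusted p under 0.05 in the same direction, 10 of the higher and 18 of the lower genes, where 3.06% and 3.11% of all genes had such a p with TG higher and lower (6.16% in all). In MS the count was also 28, 13 higher and 15 lower, where the shares of all genes were 4.16% and 3.21% (7.36% in all). In each environment, no DEG had such a p in the opposite direction. Only 13 of the 52 were called in SE, where 0.213% of all genes were called, and 10 in MS (0.134%), and 38 were called in neither. The fitted differences were mostly smaller than in EE, with a median log2 fold change in the EE direction of 0.24 in SE and 0.22 in MS, against 0.42 in EE. Since the genes were selected in EE, a smaller value in the other environments follows in part from that selection. In SE, 23 DEGs were at less than 50 percent of their EE fold change, and 11 were larger than in EE. In MS, these counts were 21 and 9.

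**Figure D5:**
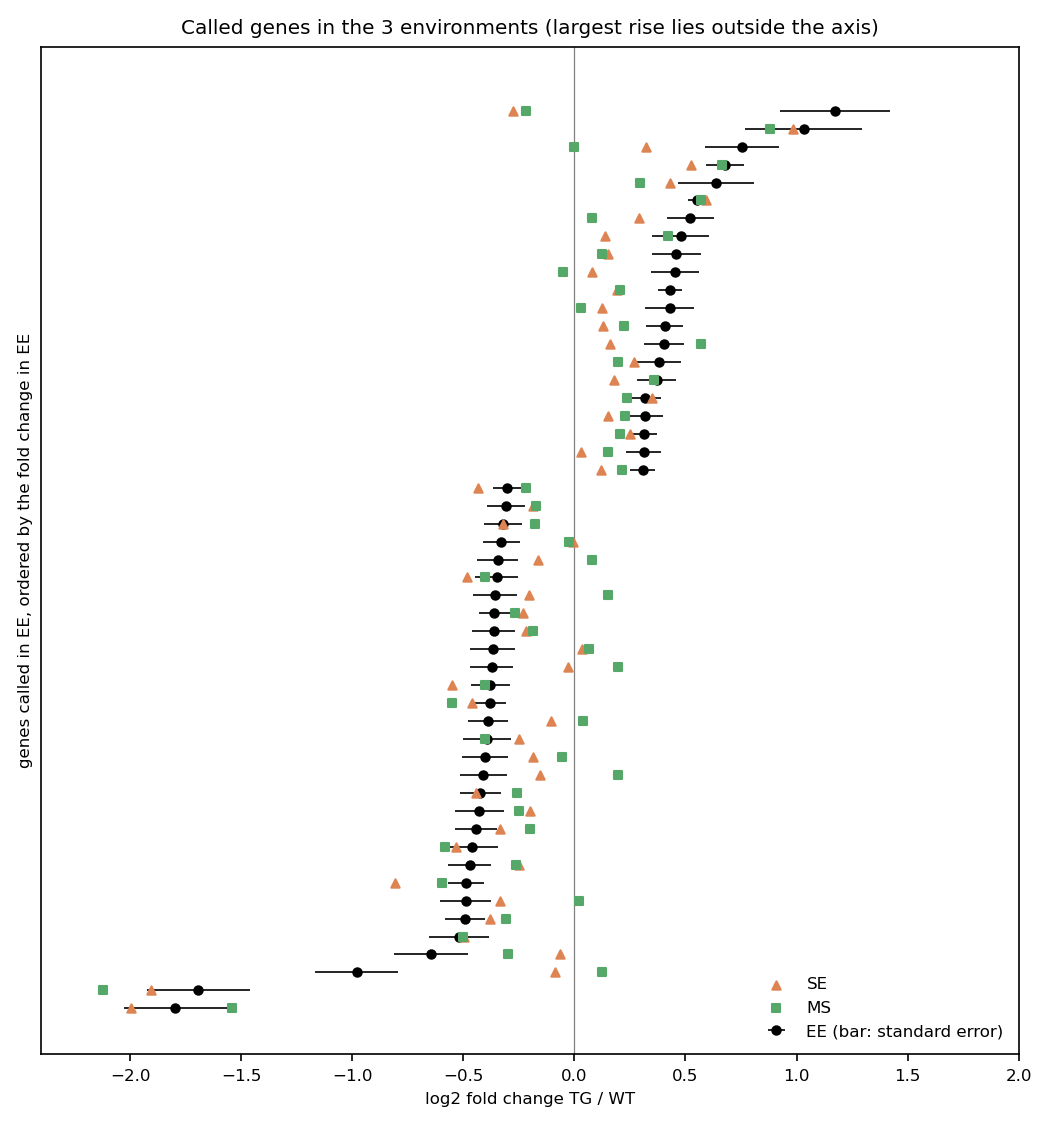
Log2 fold change TG/WT of the DEGs of EE (one per row, ordered by the value in EE) in EE (black circles, bars are standard errors), SE (orange triangles) and MS (green squares). The gene with the largest rise, at 3.66 in EE, 3.52 in SE and 3.51 in MS, lies outside the axis. Most triangles and squares lie on the same side of 0 as the circle but nearer to 0, with 2 genes of opposite sign in both SE and MS.

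A set of 9 DEGs, 3 higher and 6 lower, had genotypes that did not overlap in any of the 3 environments. The share of all tested genes that met this in all 3 together was not counted, so the 9 are only described. In EE their absolute log2 fold changes ranged from 0.36 to 3.66. The 3 higher genes were ENSRNOG00000010867 and the fifth and seventh largest rises. The seventh was almost constant, at 0.55 on the log2 scale for EE, 0.59 for SE and 0.57 for MS, and WT lay between 1474 and 1897 and TG between 2166 and 2716 normalised counts over all 3 environments. Among the lower genes were ENSRNOG00000014296, ENSRNOG00000004179 and the eighth largest fall, whose log2 fold change was -0.49 for EE, -0.81 for SE and -0.597 for MS. The genotypes were apart in the fifth largest fall too, with -0.52 in EE and -0.50 in both SE and MS, although its adjusted p was 0.0746 in EE, 0.303 in SE and 0.221 in MS by edgeR. Of the 9 genes, 7 were called in all environments and 8 in every fit without 1 EE animal. Non-overlap in SE in the same direction held for 14 of the 52 DEGs, 7 higher and 7 lower, and for 0.482% of all genes (0.3% higher and 0.182% lower). In MS it held for 11, 3 higher and 8 lower, and for 0.379% of all genes (0.166% higher and 0.213% lower).

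Whether the effect of the transgene differed between environments was tested by interaction terms. No gene passed the thresholds for EE against SE, for EE against MS or for EE against the mean of SE and MS with edgeR, and the smallest adjusted p were 0.472, 0.911 and 0.356. Without adjustment, 509 (4.02%), 487 (3.85%) and 502 genes (3.97%) had p under 0.05. With DESeq2 and the same surrogate variables 1 gene was called against the mean of SE and MS, and without surrogate variables DESeq2 called 19 genes against SE. In edgeR, 12 genes were called against SE with 1 surrogate variable, and 8 or 12 with runs or pairs of consecutive libraries as covariate. The part of WT_SE replicates 2, 5 and 6 and TG_SE replicate 5, which had high sums of the 85 genes above, in these calls was not tested. The median standard error of the interaction against the mean of SE and MS was 0.101 on the log2 scale, above the 0.0737 of the TG_EE/WT_EE contrast itself. The 38 DEGs called in EE and in neither SE nor MS are therefore not shown to be particular to EE.

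Among the 52 DEGs, 18 had an unadjusted p under 0.05 for EE against the mean of SE and MS, 8 of the higher and 10 of the lower genes, and in all 18 the difference was larger in EE. As the genes were selected for their difference in EE, this count is a description. Their median fitted log2 fold change in the EE direction was 0.43 for EE, 0.12 for SE and -0.03 for MS. These values and the count of 18 come from the fit with 5 surrogate variables, and the count was not taken in other fits. For the tenth largest rise the fitted difference was 0.46 in EE and 0.15 in SE. Its uncorrected mean normalised counts were 1134 in WT_EE and 1509 in TG_EE, and 1154 in WT_SE and 1509 in TG_SE. How many of the 18 differed in this way was not counted. The interaction compares the shift of TG_EE with that of WT_EE, so selecting on it favours genes in which both move apart. The share of all tested genes that did so was not counted, and the next count only describes the 18. In 16 of them both genotypes moved apart. TG_EE lay further in the direction of the call than the mean of TG_SE and TG_MS, and WT_EE lay further against it than the mean of WT_SE and WT_MS. The medians of these shifts were 0.12 for TG and -0.15 for WT on the log2 scale of normalised counts, and the shift of WT was the larger in 8 of the 18.

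The smallest of these p values belonged to ENSRNOG00000048769, whose interaction was 1.42 ± 0.337 (unadjusted p = 0.00019, adjusted p = 0.998 by edgeR). For this gene, WT_EE was lower than the other WT groups by 0.78 and TG_EE was higher than the other TG groups by 0.54. The third largest fall came next, with an interaction of -0.998 ± 0.259 (unadjusted p = 0.000517). Its mean normalised counts were 53.1 in WT_SE, 68.2 in WT_EE and 44.96 in WT_MS, and 57.2 in TG_SE, 31.7 in TG_EE and 50.8 in TG_MS. TG_EE thus had the lowest and WT_EE the highest mean of the 6 groups. The twelfth largest rise had an interaction of 0.23 ± 0.0732 (unadjusted p = 0.00351 by edgeR), and its fitted difference was 0.43 within EE, 0.19 within SE and 0.20 within MS. Its mean normalised counts, not corrected for surrogate variables, were 2236 in WT_SE, 2048.5 in WT_EE and 2349 in WT_MS. In TG they were 2939 in TG_SE, 2790 in TG_EE and 2520 in TG_MS, and the genotypes did not overlap in SE. The fitted difference within SE was thus smaller than that of the uncorrected counts. On the uncorrected counts of this gene, TG_EE lay between TG_MS and TG_SE, 0.03 above their mean on the log2 scale. WT_EE was lower than the mean of the other WT groups by 0.16.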

How the data were processed

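Striatal RNA-seq counts of 36 male rats, 6 in each of 6 groups, were used. The submitters' processing notes name STAR 2.5.2b, FastQC 0.11.4 and DESeq2 1.16.1. Reads were aligned by the authors to the rat genome of Ensembl, to which the human huntingtin transgene had been added. The deposited values are raw counts per Ensembl gene, without normalisation. The program that counted reads per gene is not given in the sources used here, and neither is the handling of strand or of reads shared by similar genes.

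Libraries were grouped by the genotype and environment of their labels. Tests used edgeR 4.0.16, sva 3.50.0 and limma 3.58.1 (R 4.3.3). Genes were kept if their raw count averaged 50 or more over 36 libraries. The quasi-likelihood model held 1 mean per group, TMM normalisation and 5 surrogate variables from svaseq, their number taken from permutations in num.sv (seed 1), where the asymptotic method gave 0. DEGs had an adjusted p (Benjamini-Hochberg) not above 0.1 and a log2 fold change of 0.3 or more in size. Normalised counts are TMM-scaled to the mean library, without correction for surrogate variables, and 0.5 was added before log2. The exact permutation test of single genes ran over the 924 groupings of 12 EE animals. No 2 EE libraries agreed within sampling noise. The procedure was tested on simulated data. Precision is the SD of 6 animals or the standard error of the fit. Alternatives were other numbers of surrogate variables, runs or pairs of consecutive libraries as covariate, DESeq2 1.42.0, its size factors, the EE libraries alone, other count minima and thresholds, and each EE animal left out. Fits and counts without both libraries of the last run were added after seeing the data.

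The comparison, lists and thresholds were chosen with earlier results of these data known. The rule for named genes needed symbols and could not be applied, and neither could the fixed lists of pathways and cell type markers or the promoter search, so both genes with the largest rise and both with the largest fall are given by identifier, and others by rank, chosen after their values were seen. Reads of near-identical genes may be split or shared by the counting, which could not be checked without names.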

Additional observations from a re-analysis of the deposited data

Results flagged for a closer look

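Of 14 groups examined in EE for 1 library far from the others, by the gap to the nearest library as a share of the range of 6, 3 were marked, and chance marks about 1 in 20 groups. For ENSRNOG00000004179, WT_EE replicate 6 had a normalised count of 228, whereas the next WT_EE animal had 118 (gap of 0.747 of the range). Without this animal the gene was still called. Its genotypes did not overlap in EE, and leaving out the highest WT_EE value of a gene lower in TG_EE cannot change that. On the first principal component of the 12 EE libraries, WT_EE replicate 6 had a score of 27.2 with 2.42 for the next WT_EE animal (0.638 of the range). TG_EE replicate 6 had 29.6 with 0.401 for the next TG_EE animal (0.661 of the range). This component is the axis of largest spread over the same libraries, so the rate of 1 in 20 does not apply to the marks on it. The marked libraries, replicate 6 of each genotype, belong to the last run of 6. The gene with the largest excess in this pair had normalised counts of 639 and 1889, against 0 to 52.7 in the other EE libraries. None of the 52 DEGs was among the 540 genes above all other EE libraries in this pair, and 2 were among the 307 below. Of all genes tested, 4.27% were above and 2.43% below. The pair holds both genotypes, so a gene that separates them can hardly be in either list. These counts therefore do not measure the influence of the pair on the DEGs. The part of the pair in the counts of DEGs was not tested beyond the fits without it.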

How the results depend on the processing

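The direction of the 52 DEGs was kept in all alternatives in which they were tested, whereas the number called moved. Without surrogate variables 21 genes were called (11 higher, 10 lower), with 1 surrogate variable 30 (15 and 15), and with pairs of consecutive libraries as covariate 36 (22 and 14). A fit of only the 12 EE libraries called 20 (8 and 12). With the runs as replicate block this fit called 81 (40 and 41). The run numbers come from the library numbers and no label says that they mark a shared litter or day. With at least 50 counts in every library 25 genes were called (8 and 17), with a mean of at least 10 counts 65 (39 and 26), and with no count filter 61 (38 and 23). An adjusted p of at most 0.05 left 29 (15 and 14), and no minimum fold change gave 129 (71 and 58). Without both EE libraries of the last run 34 were called (15 and 19), and without them and surrogate variables 22 (11 and 11). Genotypes did not overlap in 228 genes without this pair, which leaves 5 animals per group, against 59 with it. With 2 surrogate variables, runs as covariate, DESeq2 or its size factors, the total was 39 to 51, and DESeq2 with surrogate variables gave no adjusted p for 20 of the 52. Leaving out 1 EE animal gave 27 to 57 genes in all, 11 to 29 higher and 16 to 30 lower. The cause of these changes was not tested.

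For EE against SE, interactions were called for 12 genes with 1 surrogate variable, 8 with runs as covariate, 12 with pairs as covariate, 19 with DESeq2 without surrogate variables and 1 without the last run and surrogate variables. Against the mean of SE and MS, 3 were called with pairs as covariate and 1 with DESeq2 and surrogate variables. Against MS none was called in any fit. Direction shared with SE held for 47 to 50 of 52 DEGs where all were tested, and with MS for 40 to 45. In edgeR, ENSRNOG00000048769 was not called with no covariate, with 1 surrogate variable, in the 12 EE libraries alone or without the last run and surrogate variables, with log2 fold changes of 1.11, 0.96, 1.11 and 1.05 and adjusted p of 0.229, 0.187, 0.104 and 0.292 by edgeR. Of the 52, 8 were called in every fit in which they were tested. At these depths the 3165 genes of lowest level, with 50 to 153 counts on average, had a median standard error of 0.124, so small differences there were the least detectable.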
